A study of Mus musculus with 6 samples.

Results

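Carboxylesterase RNA was measured in the livers of mice fed a regular diet (RD) or a high-cholesterol diet (HCD), for 10 genes chosen by symbol (Ces1c, Ces1d, Ces1e, Ces1f, Ces1g, Ces2a, Ces2c, Ces2e, Ces3a and Ces3b). They are 10 of the 17 carboxylesterase genes and of the 20673 genes in the tables. All mice were C57BL/6J of about 12 weeks of age, and 3 livers came from mice on RD (a Teklad chow, labelled as having no treatment) and 3 from mice on HCD (TD.88051) for 3 days. The HCD differed from the RD in cocoa butter, total fat, cholesterol and sodium cholate together, so an effect of cholesterol alone cannot be told apart from that of the rest of the diet. Males and females were both used in the study, and the labels do not give the sex of any liver. Each liver was 1 library, and nothing in the labels says more about how the replicates were drawn, so p-values measure the spread between these 6 libraries.

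Carboxylesterases are serine hydrolases that split esters, amides and thioesters, and the liver holds large amounts of them, mainly in the lumen of the endoplasmic reticulum. They clear drugs and other foreign esters, and several of them also hydrolyse triglyceride or other lipid esters made in the hepatocyte. The mouse carries far more copies than the human genome, arranged in tandem, and the copies are divided by sequence into subfamilies, of which Ces1, Ces2 and Ces3 hold these 10 genes. Ces1d, also known as triacylglycerol hydrolase or Ces3, supplies stored triglyceride for very low density lipoprotein assembly, and Ces1g (Es-x) is a lipid hydrolase of hepatocytes. Ces1c is the carboxylesterase that mouse liver secretes into plasma, and Ces2a and Ces2c belong to the subfamily that also hydrolyses acylglycerols.

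The 10 genes stand in 2 clusters on chromosome 8 (GRCm38, GENCODE M21). The Ces1 members lie on the minus strand, from Ces1c (ENSMUSG00000057400, 93099015 to 93131283) to Ces1g (ENSMUSG00000057074, 93302369 to 93337308). Ces1d (ENSMUSG00000056973) spans 93166068 to 93197838 between them. The Ces2 and Ces3 members lie on the plus strand, from Ces2a (ENSMUSG00000055730, 104734003 to 104741634) to Ces3a (ENSMUSG00000069922, 105048601 to 105058413) and Ces3b (ENSMUSG00000062181, 105083753 to 105093929). Each has 12 to 14 exons in the longest annotated reading frame.

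The catalytic serine was located in each reading frame as a serine codon between 2 glycine codons, with 1 other codon between it and each glycine. A match that read glycine, glutamate, serine, alanine, glycine, glycine was preferred where present. The serine fell in exon 5 of all 10 genes, at codon 221 to 232. The stretches of 45 coding bases below are shown because they let the subfamilies and the near-identical Ces3 pair be seen side by side. The serine codon is in capitals, and each stretch is read 5′ to 3′ on the strand of its gene.
Ces1c (chr8:93123106-93123150): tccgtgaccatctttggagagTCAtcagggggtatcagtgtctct
Ces1d (chr8:93187749-93187793): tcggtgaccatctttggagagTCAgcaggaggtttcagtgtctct
Ces1g (chr8:93328384-93328428): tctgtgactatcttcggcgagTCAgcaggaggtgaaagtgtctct
Ces2a (chr8:104737395-104737439): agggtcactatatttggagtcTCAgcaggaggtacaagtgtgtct
Ces2c (chr8:104850753-104850797): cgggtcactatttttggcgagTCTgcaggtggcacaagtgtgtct
Ces3a (chr8:105051571-105051615): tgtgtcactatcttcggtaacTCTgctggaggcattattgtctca
Ces3b (chr8:105086661-105086705): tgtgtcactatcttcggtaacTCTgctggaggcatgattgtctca
Ces3a and Ces3b differed at 1 base of this stretch, and Ces1d and Ces1g at 7. Ces1d differed from Ces3a at 15.

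In carboxylesterases that stay in the endoplasmic reticulum the last codons carry the signal by which luminal proteins are retrieved. The same end is shown for the members whose RNA is described most closely and for Ces1c, the secreted enzyme, for comparison. The last 4 codons before the stop codon are in capitals.
Ces1c (chr8:93099165-93099197, exon 13): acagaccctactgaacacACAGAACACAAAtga
Ces1d (chr8:93166255-93166287, exon 14): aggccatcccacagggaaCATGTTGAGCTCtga
Ces1g (chr8:93302905-93302937, exon 14): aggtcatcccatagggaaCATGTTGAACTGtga
Ces3a (chr8:105058071-105058103, exon 13): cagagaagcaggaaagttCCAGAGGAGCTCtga
Ces3b (chr8:105093230-105093262, exon 13): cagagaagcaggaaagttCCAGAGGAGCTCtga
The ends of Ces3a and Ces3b are the same in all 33 bases, Ces1d and Ces1g differ at 4, and the end of Ces1c differs from that of Ces1d at 25. These sequences come from the GENCODE reference transcripts and not from the livers.

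Reads can be shared between copies, and the sources used here do not give how the authors' counting treated a read that fits more than 1 gene. Over the coding sequence Ces3a and Ces3b were 95.3% identical, Ces2c and Ces2b 91.6%, and Ces1c and Ces1b 89.1%. Any other pair of members was at most 83.9% identical. Of all 100-base windows in the transcripts of a gene, those also found in another gene made up 13.6% for Ces2c (mostly in the pseudogene Ces2d-ps), 8.1% for Ces2a, 7.0% for Ces3b, 6.9% for Ces3a and 1.0% for Ces1c. None was found for the other 5 members. With windows of 50 bases the shares were 36.1% for Ces2c, 26.2% for Ces3b, 25.6% for Ces3a, 17.3% for Ces2a and 13% for Ces1c (mostly in Ces1b). The split of reads within the Ces3 pair, and the values of Ces2a, Ces2c and Ces1c, are therefore less certain than those of Ces1d.

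All 10 members were detected in every liver, and levels between genes were compared in the deposited FPKM, which are corrected for gene length. Ces1c was highest in the median on both diets, from 1421 to 2622 FPKM, and Ces3a was next on both, from 1261 to 1457 with RD and 276 to 1103 with HCD. With RD the ranges of these neighbours overlapped. Ces3b followed with RD (306 to 497 FPKM), and its range overlapped that of Ces1d (299 to 393) below it. With HCD that place was held by Ces1d (541 to 879 FPKM), followed by Ces2a (223 to 505), and Ces3b (12 to 182) stood below Ces1f (156 to 206) and Ces1g (95.8 to 191). Here the range of Ces3a overlapped that of Ces1d, that of Ces1f overlapped Ces1g, and that of Ces1g overlapped Ces3b. The range of Ces2a lay below that of Ces1d and above that of Ces1f. Ces1e, Ces2e and Ces2c closed the RD order and were between 2.62 and 111 FPKM over both diets.

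**Figure D1:**
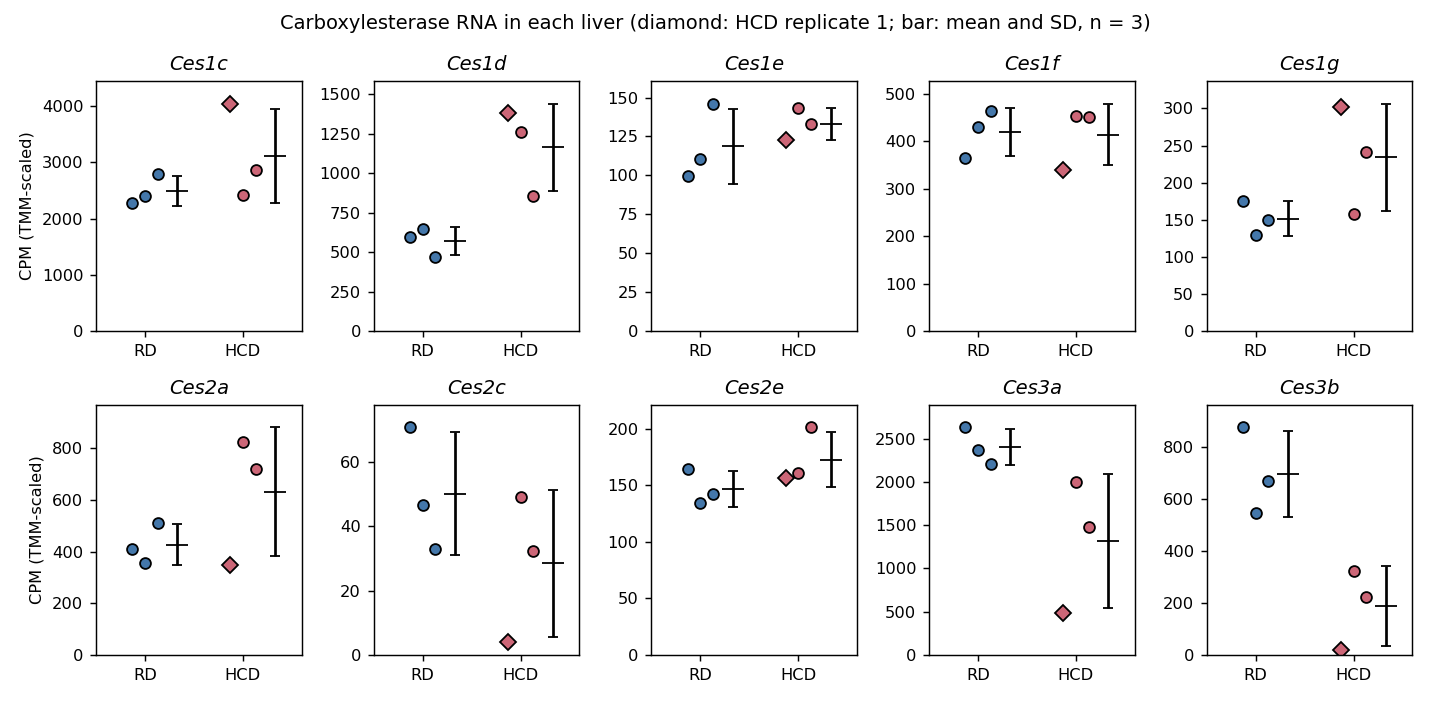
Normalised read count (CPM, scaled with TMM factors) of each carboxylesterase in each liver, with RD in blue and HCD in red on a linear axis that starts at 0, HCD replicate 1 as a diamond, and the mean with its SD (n = 3) as a bar. The diets do not overlap in Ces1d, Ces3a and Ces3b, and HCD replicate 1 is the lowest liver in Ces2c (3.99 CPM), Ces3a (481) and Ces3b (20.4).

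The members were then compared between diets, which addresses whether short feeding with HCD shifts hepatic ester hydrolase transcripts. Ces1d rose, the Ces3 pair was lower in every HCD liver without passing the test, and the other 7 members overlapped between diets. Counts were scaled with TMM factors to CPM, counts brought to a common library total, and tested by edgeR's quasi-likelihood method, with p adjusted by Benjamini-Hochberg across the 13105 genes that passed the filter on low counts. Calls were made where the adjusted p was under 0.05. All 10 members passed the filter, and 1 was called (Ces1d, higher) and none lower, against 3.27% of all genes called and 1.95% called higher. Before adjustment, p was 0.05 or less for 2 members that were higher (Ces1d and Ces1g) and 1 that was lower (Ces3b), and for 20.9% of all genes. DESeq2 called Ces1d higher and no member lower, with 7.2% of all genes called and 4.01% called higher. The log2 fold changes of HCD over RD had a median of 0.20 over the members and 0.007 over all genes tested.

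Of the Ces1 subfamily, Ces1d RNA was 596, 649 and 473 CPM in RD replicates 1, 2 and 3 and 1381, 1259 and 854 CPM in HCD replicates 1, 2 and 3. Every HCD liver was above every RD liver. The means were 573 ± 90.1 CPM with RD and 1165 ± 276 with HCD (SD, n = 3), and the log2 fold change was 1.02 with a standard error of 0.22 (edgeR, Benjamini-Hochberg adjusted p = 0.0473). This call lay close to the threshold. It was lost when any liver other than HCD replicate 3 was left out, with adjusted p from 0.0738 (without HCD replicate 1) to 0.170 (without RD replicate 1), while the log2 fold change stayed between 0.88 and 1.20. Scaling by library sizes alone also ended the call (edgeR, adjusted p = 0.0932), as did other processing choices given further below.

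Ces1g RNA was 176, 129 and 150.1 CPM with RD and 302, 158 and 242 with HCD. The diets overlapped between RD replicate 1 and HCD replicate 2, and the log2 fold change was 0.62 with a standard error of 0.24 (edgeR, adjusted p = 0.186), and 0.40 without HCD replicate 1 (adjusted p = 0.342). Ces1c, the most abundant member, had 2269, 2405 and 2786 CPM with RD and 4039, 2425 and 2870 with HCD. Its high value in HCD replicate 1 set the mean apart (2487 ± 268 CPM with RD and 3111 ± 834 with HCD), and the log2 fold change of 0.32 (edgeR, adjusted p = 0.445) was 0.09 without that liver.

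Ces1e, the egasyn that holds beta-glucuronidase in the endoplasmic reticulum, and Ces1f differed less between diets. Ces1e RNA ranged from 99.5 to 146 CPM with RD and from 123 to 143 with HCD, with a log2 fold change of 0.17 (standard error 0.17) that ran from 0.05 to 0.34 with each liver left out in turn. Ces1f, with 365 to 464 CPM and 339.8 to 453, gave the smallest difference of the 10, with a log2 fold change of -0.02 (standard error 0.17). Neither was called (edgeR, adjusted p = 0.610 and 0.965). The summed counts of the 7 Ces1 genes in the tables, which do not depend on how reads are split within the subfamily, gave 3825 ± 280.4 CPM with RD and 5142 ± 981 with HCD (SD, n = 3), with a log2 fold change of 0.43 and an edgeR adjusted p of 0.258. Without HCD replicate 1 the log2 fold change of this sum was 0.26 (adjusted p = 0.389).

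In the Ces2 subfamily, Ces2a RNA was 412, 357 and 512 CPM with RD and 349, 823 and 722 with HCD. HCD replicates 2 and 3 were above every RD liver, while HCD replicate 1 was below all of them. The log2 fold change was 0.56 with a standard error of 0.30 (edgeR, adjusted p = 0.330), and without HCD replicate 1 it was 0.86 with an adjusted p = 0.0548. Without HCD replicate 2 it was 0.32. Ces2c RNA was 70.7, 46.5 and 33 CPM with RD and 3.99, 49.0 and 32.3 with HCD. Apart from HCD replicate 1, at 79 reads, the livers of the diets overlapped, and the log2 fold change of -0.82 with a standard error of 0.69 (edgeR, adjusted p = 0.531) became -0.30 without that liver. It was -1.49 without HCD replicate 2 and -0.49 without RD replicate 1. Ces2e RNA, at 134 to 164 CPM with RD and 156 to 201 with HCD, had a log2 fold change of 0.24 (edgeR, adjusted p = 0.413), which was 0.11 without HCD replicate 3. The sum of the 7 Ces2 genes in the tables had a log2 fold change of 0.39 (standard error 0.25) and an edgeR adjusted p of 0.414, against 0.63 and an adjusted p of 0.0791 without HCD replicate 1. Without HCD replicate 2 the log2 fold change of this sum was 0.21 (edgeR, adjusted p = 0.685).

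The Ces3 pair was lower in every HCD liver. Ces3b RNA was 877, 547 and 669 CPM in RD replicates 1 to 3 and 20.4, 323 and 223 CPM in HCD replicates 1 to 3. All HCD livers were below all RD livers, and HCD replicate 1 was far below the other two. The means were 698 ± 167 CPM with RD and 189 ± 154 with HCD (SD, n = 3). The log2 fold change of -1.89 had a standard error of 0.75 and was not called (edgeR, adjusted p = 0.199). Without HCD replicate 1 the log2 fold change was smaller, at -1.35, but so was its standard error, at 0.25, and Ces3b was then called (edgeR, adjusted p = 0.0406). It was the single member called lower in that fit, where 1.02% of all genes were called lower.

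Ces3a RNA was 2632, 2374 and 2215 CPM with RD and 481, 2003 and 1481 with HCD. The diets did not overlap, and HCD replicate 2 stood closest to the RD livers. The log2 fold change was -0.86 with a standard error of 0.43 (edgeR, adjusted p = 0.292), and without HCD replicate 1 it was -0.47 (adjusted p = 0.212). Without HCD replicate 2 it was -1.30. The sum of both genes, which removes the split of shared reads, was 3509, 2921 and 2884 CPM with RD and 501, 2326 and 1704 with HCD, with a log2 fold change of -1.04 (standard error 0.46) and an edgeR adjusted p of 0.242. Without HCD replicate 1 the log2 fold change of the sum was -0.62 (adjusted p = 0.131), and without HCD replicate 2 it was -1.5. Ces3b counts amounted to 33.3, 23.0 and 30.2% of the Ces3a counts in the RD livers and to 4.25, 16.1 and 15.0% in the HCD livers, so each HCD liver held less Ces3b per Ces3a than any RD liver. In all, 3 of the 10 members (Ces1d, Ces3a and Ces3b) did not overlap between diets, and 27.6% of all genes tested did not overlap.

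**Figure D2:**
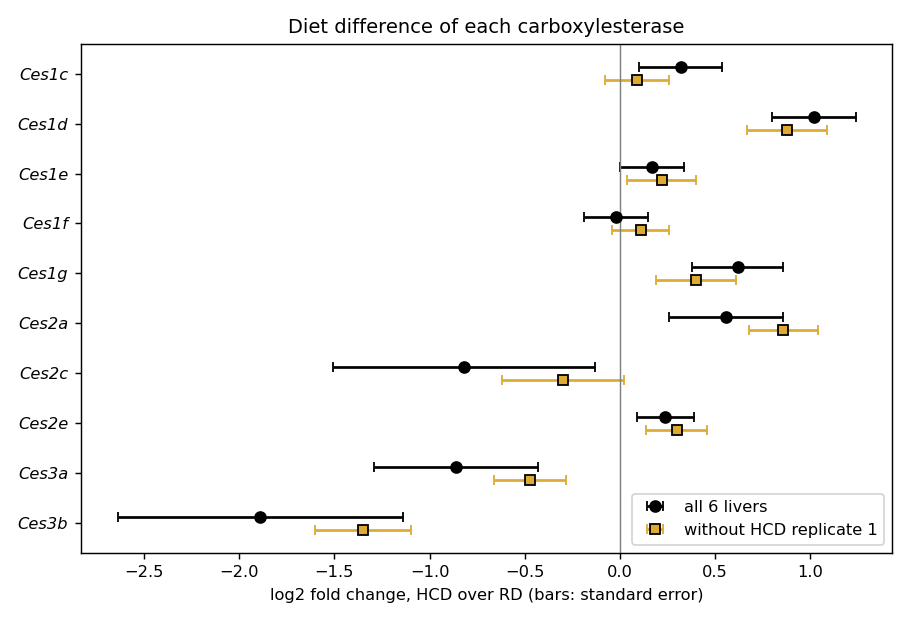
Log2 fold change of HCD over RD for each carboxylesterase, with standard errors, from edgeR with all 6 livers (black) and without HCD replicate 1 (yellow). Ces1d stands at 1.02 and 0.88, and Ces3b at -1.89 and -1.35 with the narrower error in the smaller set.

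HCD replicate 1 stood apart from the other livers in sex-linked RNA. Xist, transcribed from the inactive X chromosome, was at 254 CPM in that liver and at 0 in the other 5, and the Y-linked genes Ddx3y, Eif2s3y, Uty and Kdm5d were at 0 in that liver and at 4.48 to 53.4 CPM in the others. In these genes HCD replicate 1 had the pattern of a female mouse and the other 5 livers that of males. The fit of all 6 livers thus set 3 livers of male pattern with RD against HCD livers of both patterns. Diet and this difference between livers cannot be told apart in HCD replicate 1. It was the lowest of all 6 livers for 5 members (Ces1f, Ces2a, Ces2c, Ces3a and Ces3b) and the highest for 3 (Ces1c, Ces1d and Ces1g), while it was lowest for 19.3% and highest for 19.4% of all genes tested. Against the RD mean its log2 ratio was -5.06 for Ces3b, -3.49 for Ces2c, -2.32 for Ces3a, 1.27 for Ces1d and 0.99 for Ces1g.

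The other HCD livers carried Y-linked RNA, though less of Ddx3y (37.1 and 34.5 CPM against 51.3 to 53.4 with RD) and Uty (4.48 and 6.48 against 10.7 to 12.8). Eif2s3y (27.2 and 32.6 CPM against 32.2 to 39.5) and Kdm5d (7.31 and 13.5 against 10.9 to 14.9) overlapped the RD range. None of these genes was called without HCD replicate 1 (edgeR, adjusted p from 0.0662 for Uty to 0.589 for Kdm5d). For the Ces3 pair, HCD replicates 2 and 3 gave smaller values in the same direction as HCD replicate 1. The log2 ratio to the RD mean was -1.11 and -1.65 for Ces3b and -0.26 and -0.70 for Ces3a in HCD replicates 2 and 3, and 1.14 and 0.58 for Ces1d. A list of 11 genes known to be higher in male mouse liver, chosen with the data in view, was examined in the same livers. All 11 were below the RD mean in HCD replicate 1, with a median log2 ratio of -6.88. In HCD replicate 2 there were 8 below, with a median of -0.33, and in HCD replicate 3 there were 10, with a median of -1.10. Without HCD replicate 1, edgeR called 3 of the 11 lower and none higher, with the other 8 on either side of 0. Of all genes 1.02% were called lower, but a list chosen with the data in view cannot be tested against that share. Selenbp2, a selenium-binding protein, stood at -2.45 on the log2 scale (edgeR, adjusted p = 0.00456). Nudt7, a peroxisomal coenzyme A diphosphatase, stood at -1.60 (adjusted p = 0.0212), and Cyp7b1, an oxysterol hydroxylase, at -1.07 (adjusted p = 0.0398). The part of these genes in the Ces3b difference was not tested.

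**Figure D3:**
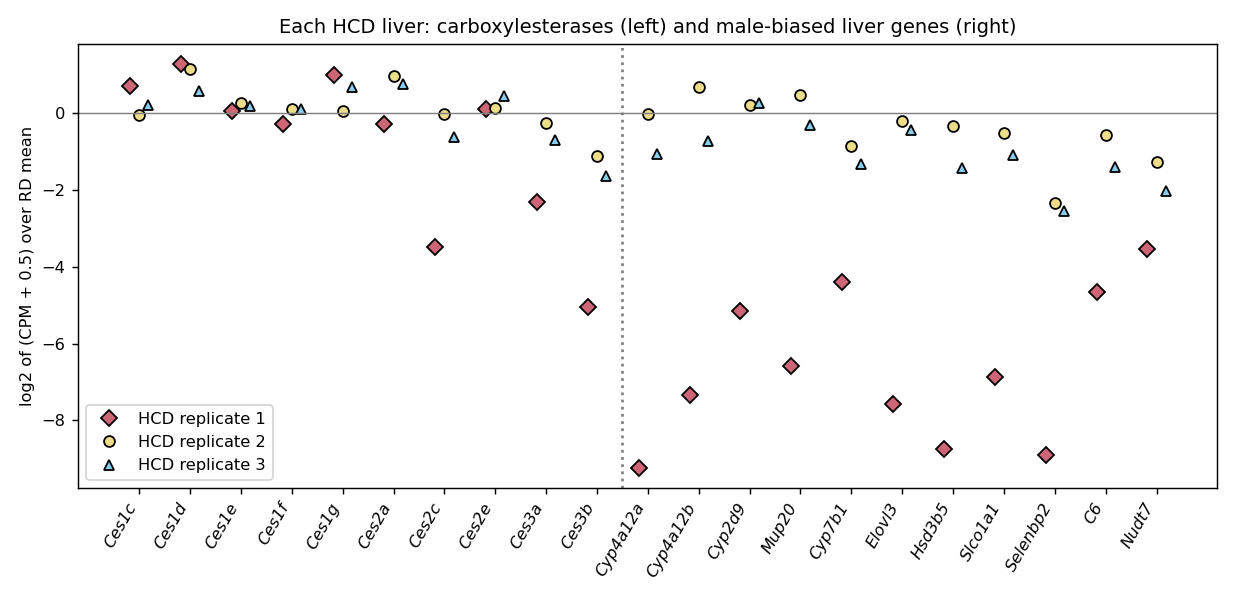
Log2 of CPM plus 0.5 over the RD mean in each HCD liver, for the 10 carboxylesterases (left of the dotted line) and 11 genes higher in male mouse liver (right). HCD replicate 1 (diamonds) is the lowest HCD liver for all 11 genes on the right and for Ces1e, Ces1f and every Ces2 and Ces3 member, and the highest for Ces1c, Ces1d and Ces1g.

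The summed RNA of the 10 members varied little while its make-up differed. It was 7661, 7182 and 7591 CPM with RD and 7197, 7798 and 7211 with HCD, and made up 0.638 to 0.791% of a library's counts. In FPKM the sum was 4135 to 4571 with RD and 4410.5 to 4576 with HCD. The ranges of the diets overlapped on both scales.

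Within that sum, Ces3a and Ces3b together held 45.8, 40.7 and 38.0% of the members' counts in the RD livers and 6.97, 29.8 and 23.6% in the HCD livers. Every HCD liver was below every RD liver, and the mean share went from 41.5% ± 3.97 to 20.1% ± 11.8 (SD, n = 3), a difference of -21.3 percentage points (exact two-sided permutation test, p = 0.1, the smallest that 3 livers against 3 allow). A share within a liver does not depend on the scaling between libraries. Ces1d held 7.68% ± 1.40 with RD and 15.7% ± 3.69 with HCD (n = 3), again without overlap (exact permutation p = 0.1), and Ces2a held 5.70% ± 0.929 and 8.48% ± 3.15 with overlap (exact permutation p = 0.4). Ces1c took 33.3% ± 3.55 with RD and 42.3% ± 12.7 with HCD (n = 3), reaching 56.1% in HCD replicate 1, and the diets overlapped (exact permutation p = 0.3). Without HCD replicate 1 the difference between diets was 2.18 percentage points for Ces1c, in place of 9.07, and -9.08 for Ces3a, in place of -14.6. For Ces2a it was 4.59 in place of 2.78. Leaving out HCD replicate 2 instead gave 14.7 percentage points for Ces1c, -18.6 for Ces3a and 1.74 for Ces2a. By FPKM the Ces3 pair went from 39.5 to 18.9% of the sum and Ces1d from 8.08 to 16.2%. Shares of a sum are tied to each other, so a fall in the pair's share raises the others.

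**Figure D4:**
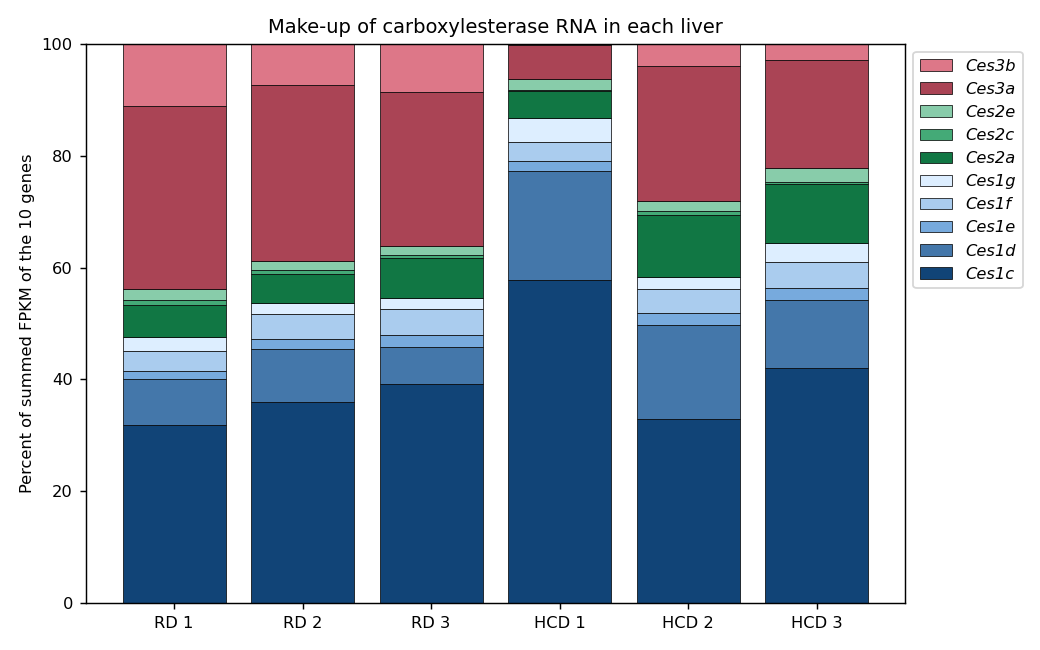
Percent of the summed FPKM of the 10 carboxylesterases held by each gene in each liver, with Ces1 in blue, Ces2 in green and Ces3 in red. The red section is smaller in every HCD liver than in any RD liver and smallest in HCD 1, where Ces1c holds the longest section.

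Of the 7 other carboxylesterase genes in the tables, Ces1b stood above Ces2c, the lowest member. The medians of Ces1b were 44.6 FPKM with RD and 65.7 with HCD, against 29.0 and 21.1 for Ces2c. Ces2g, with medians of 18.3 and 20.5 FPKM, was below Ces2c, and the rest were lower. Of these 7 genes 5 were tested, and none was called by edgeR or DESeq2. Ces1b, the closest copy of Ces1c, had 60.3 to 102 CPM with RD and 67.1 to 98.6 with HCD, and Ces2g had 43.0 to 46.3 and 44 to 49.4. Ces4a, a gene of another subfamily at the end of the second cluster, was at 10.9, 6.49 and 7.38 CPM with RD and at 0, 6.76 and 1.86 with HCD (log2 fold change -1.55, standard error 0.99, edgeR adjusted p = 0.415). With each liver left out in turn its log2 fold change ran from -3.31 to -0.93, the latter without HCD replicate 1. Ces2b was likewise at 0 in HCD replicate 1, a count of 0 that allows up to 0.162 CPM, and at 1.05 to 9.52 CPM in the other livers. Ces2d-ps, the pseudogene that shares sequence with Ces2c, had 89 counts in RD replicate 1 and 2 to 21 in the others, and RD replicate 1 was also the liver with the most Ces2c. Ces1a and Ces2h had at most 11 counts in any liver and were not tested.

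Other genes of the same processes were read against the share over all genes, of which 3.27% were called and 20.9% had an unadjusted p of 0.05 or less. Of 15 lipid ester hydrolases tested none was called by edgeR (median log2 fold change 0.14), 3 had an unadjusted p up to 0.05 (2 higher and 1 lower), and 1 was called by DESeq2. Their most abundant gene, Aadac, an arylacetamide deacetylase of the endoplasmic reticulum, was at 403 to 554 CPM with RD and 462 to 566 with HCD. Abhd5, the coactivator of adipose triglyceride lipase, did not overlap, at 43.1, 35.2 and 27 CPM with RD and 18.7, 22.3 and 12.9 with HCD (log2 fold change -0.97, edgeR adjusted p = 0.0681). Lipa, Lipc and Abhd6 did not overlap either and were higher with HCD (log2 fold changes 0.30, 0.51 and 0.71, edgeR adjusted p = 0.255, 0.131 and 0.144). Of 16 other ester and epoxide hydrolases none was called by edgeR (median 0.17), 4 had an unadjusted p up to 0.05, and 1 was called by DESeq2. Ephx2, the soluble epoxide hydrolase and the most abundant of these, had 718, 625 and 589 CPM with RD and 652, 1034 and 1131 with HCD, and like Ces2a its lowest HCD value, within or below the RD range, was in HCD replicate 1. Its edgeR adjusted p was 0.209 with all livers and 0.0486 without HCD replicate 1. Ephx1, the microsomal epoxide hydrolase, was at 404, 587 and 375 CPM with RD and 723, 1114 and 734 with HCD, without overlap (log2 fold change 0.91, edgeR adjusted p = 0.0836).

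Genes that handle the enzymes or their lipid substrates were listed as well. Of 11 genes of very low density lipoprotein assembly and triglyceride synthesis none was called by edgeR (median -0.05), 1 had an unadjusted p up to 0.05, and 1 was called by DESeq2. Apob, the structural protein of these particles, was at 4050.2 to 5356 CPM with RD and 3609.6 to 4393 with HCD. The list also held a larger difference that missed the threshold, in Tm6sf2, a membrane protein of lipoprotein secretion, at 19.5, 32.2 and 38.7 CPM with RD and 78.5, 47.8 and 64.5 with HCD. Its log2 fold change was 1.08 (edgeR, adjusted p = 0.0697), and the diets did not overlap. Of the 3 tested genes for retrieval to the endoplasmic reticulum and for the esterase-bound Gusb none was called by edgeR or DESeq2 or reached an unadjusted p of 0.05. Kdelr2, a receptor for luminal proteins, was at 102 to 104 CPM with RD and 81.7 to 110.1 with HCD.

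Among 13 nuclear receptors and other regulators of drug-metabolising genes 1 was called. Rxra, the shared partner of many nuclear receptors, fell from 522, 558 and 468 CPM to 298, 331 and 335, with a log2 fold change of -0.68 with a standard error of 0.14 (edgeR, adjusted p = 0.0449). The call was lost when any of the 6 livers was left out, with an adjusted p of 0.0673 without HCD replicate 1. Of 10 tested targets of the xenobiotic receptors CAR and PXR, 2 were called higher by edgeR (median log2 fold change 0.43), 4 had an unadjusted p up to 0.05, all higher, and DESeq2 called 4. Both edgeR calls are cytochromes P450 of the 3a family. Among the 10 tested genes the largest log2 fold change was that of Cyp2b10, a cytochrome P450 known as a CAR target, at 2.11, 1.33 and 1.52 CPM with RD and 44.7, 3.72 and 12 with HCD. It had no overlap but a wide spread (log2 fold change 3.60, standard error 0.81, edgeR adjusted p = 0.0522), and it was called without HCD replicate 2 alone. Without HCD replicate 1 it was 2.23 (adjusted p = 0.0686). The 3 genes of this list that were not tested, Cyp2b9, Cyp2b13 and Cyp3a41a, are also in the list of genes higher in female mouse liver and were at 0 in every RD liver and at 445, 412 and 13.3 CPM in HCD replicate 1. Cyp3a11 rose from 2574, 2265 and 3360.2 CPM to 5324, 5968 and 5842 (log2 fold change 1.06, standard error 0.20, edgeR adjusted p = 0.0329). Cyp3a25 rose from 435, 461 and 539 CPM to 989.7, 917 and 917 (log2 fold change 0.98, standard error 0.15, edgeR adjusted p = 0.0203). Unlike the Ces3 pair and Ces2a, HCD replicate 1 stood close to the other HCD livers in both. With each liver left out in turn, Cyp3a11 was called without HCD replicate 1 or RD replicate 3 alone, and Cyp3a25 without HCD replicate 1, HCD replicate 2 or RD replicate 3 alone.

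The livers had 13771630 to 23129576 counts, so each member rests on 79 to 79906 reads a liver, and the biological coefficient of variation was 27.8%. The hepatocyte markers, led by Alb at 63316 to 105649 CPM, summed to 94639 to 124128 CPM with RD and 105509 to 147719.7 with HCD. Markers of Kupffer cells summed to 146 to 249 CPM with RD and 209 to 455 with HCD, highest in HCD replicate 1, and all 9 had positive log2 fold changes. Of these 9, edgeR called none, 5 had an unadjusted p up to 0.05, and DESeq2 called 4. The sums of endothelial, stellate and leukocyte markers were likewise highest in HCD replicate 1, and all 8 stellate markers had positive log2 fold changes with none called by edgeR or DESeq2 and 1 with an unadjusted p up to 0.05. Those of endothelial cells gave 107 to 183 and 127 to 199 CPM, of stellate cells 337 to 375 and 352 to 611, of cholangiocytes 37.6 to 93.2 and 65.9 to 98.6, and of leukocytes 6.78 to 12.3 and 9.86 to 16.7. Red cell markers gave 138 to 239 and 177 to 468 CPM, with 4 of 5 above 0 in log2 fold change and 2 called higher by edgeR (Hbb-bs and Hba-a1). The other, Alas2, was at 105, 105 and 154 CPM with RD and 8.24, 97.0 and 119 with HCD (log2 fold change -0.70). Adipocyte, kidney tubule and enterocyte markers gave at most 0.192, 4.12 and 296 CPM, with Fabp2 called higher among the last. The enterocyte sum was mostly Fabp2 and Apoa4, while Vil1 and Lct were at most 0.648 and 0.138 CPM in any liver. The part of these cell types in the member values was not tested, and in whole liver fewer cells of a type and less RNA per cell cannot be told apart.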

How the data were processed

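Total RNA of 6 livers was extracted with RNeasy kits and sequenced at Novogene. The authors deposited read counts per gene, whole numbers without normalization, and FPKM, whose denominators were 1.378 to 1.694 times the counted reads. The p-values and log2 fold changes that the authors deposited were not used. The submitters' processing notes name GRCm39, STAR, HTSeq, DESeq2 and edgeR. The strand setting and handling of multi-mapping reads are not given in the sources used here. Genes were joined by Ensembl identifier to GENCODE M21 on GRCm38 (20666 of 20673 found), the source of all coordinates and sequences, so they are not in the build of the notes.

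Counts were filtered with filterByExpr, scaled with TMM (factors 0.886 to 1.07) and tested with edgeR 4.0.16 (glmQLFit, glmQLFTest, no covariate, R 4.3.3), with p-values adjusted by Benjamini-Hochberg over 13105 genes. Subfamily sums replaced their genes by 1 row in the same fit. Alternatives were DESeq2 1.42.0, no filter on low counts, RLE factors, upper-quartile factors, unscaled library sizes, a mean of at least 50 counts, a length-trend correction (loess, span 0.5, degree 1), limma-trend 3.58.1 on log2(FPKM + 1) and log2(FPKM + 0.1), a replicate block, and each liver left out. Fold changes of the limma-trend fits are on the log2(FPKM + pseudocount) scale, where the pseudocount shrinks ratios of values near 0. The fit was tested on simulated data. Windows shared between transcripts were 50 and 100 bases long, and identity is 1 minus the edit distance over the longer coding sequence (edlib 1.3.9.post1).

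The carboxylesterases and all gene lists were chosen with earlier results of these data known, and lists of sex-linked and sex-biased genes were added after seeing the data. Named are all members, the other carboxylesterases in the tables, in each other list the 2 largest rises and falls among called genes or, with none called, the most abundant gene, the 5 genes most like the members' sum, and Xist and Y-linked genes. Selenbp2, Nudt7, Cyp7b1, Tm6sf2, Abhd5, Abhd6, Lipa, Lipc, Ephx1, Cyp2b10, the genes higher in female liver and single cell type markers were named after their values were seen. A count of 0 allows up to 3 counts, which is 0.130 to 0.218 CPM by library, for counting error only.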

Additional observations from a re-analysis of the deposited data

How the results depend on the processing

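The number of members called higher was 1 (Ces1d). It was 0 under the length-trend correction, library sizes alone, both limma-trend fits and an adjusted p under 0.01, and 2 at an unadjusted p of 0.05 or less. Leaving out 1 liver gave 0 to 1. The number called lower was 0, and it was 1 at an unadjusted p of 0.05 or less (Ces3b) and 0 to 1 when 1 liver was left out, with 1 without HCD replicate 1. The Ces1d log2 fold change stayed between 0.88 and 1.20 throughout, and its adjusted p was 0.0735 with the length trend removed, 0.0932 with library sizes alone and 0.0581 and 0.0601 under limma-trend. Ces1f lay near 0 and changed sign, to 0.0001 in both limma-trend fits and 0.01 with upper-quartile factors, and ranged from -0.11 to 0.11 when 1 liver was left out. No other member changed direction. The subfamily sums, which were not fitted with limma-trend, were not called in any count-based fit made for them at an adjusted p under 0.05. Ces2c was more negative than Ces3a under limma-trend (-1.33 and -1.20 against -1.07), with the replicate block (-1.13 against -1.07), without HCD replicate 2 and without RD replicate 3. The cause of these differences was not tested.

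The replicate numbers are shared by the diets, but livers of the same number did not deviate together (r of their deviations -0.0761, 0.0879 and -0.0413), so the numbers were not taken as pairs. With a replicate block 0 members were called, and the Ces1d log2 fold change was 1.01 (edgeR, adjusted p = 0.054).

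With 3 livers a diet, 1 of them set apart by Xist, the Ces3 and Ces2c values vary widely between HCD livers. Reads shared within the Ces3 pair limit their separation, and reads dropped for fitting both genes, if any were, would also be missing from the sum. The diets differ in several components, and no label gives the sex of a liver.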

Other observations

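The members' summed CPM was set against the log2 CPM of the 7446 tested genes that averaged 10 CPM or more. The highest Pearson r over the 6 livers, given as a description since the sum hardly varied, belonged to Yipf1 (r = 0.9912), Polr2f (0.9836), Commd4 (0.9806), Rammet (0.9632) and Srf (0.949). Yipf1 was at 29.7 to 37.2 CPM with RD and 29.0 to 40.6 with HCD, highest like the sum in HCD replicate 2. None of the 5 was called between diets (log2 fold changes from -0.11 to -0.02).

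Genes known to be higher in female mouse liver, also listed after seeing the data, were high in HCD replicate 1. Sult2a1, a sulfotransferase of bile acids and steroids, was at 793 CPM there, Cyp2a4 at 657 and Cyp2b9 at 445. The 11 genes of that list summed to 2698 CPM in HCD replicate 1 and to at most 6.47 CPM in any RD liver. The lowest HCD sum was 5.51 CPM, and no gene of the list was above 5.43 CPM in HCD replicate 2 or 3.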
